A study of Mus musculus with 6 samples.

Results

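Plbd1, Wfdc17, Mpeg1 and Slc35d3 are 4 of the 18194 genes measured in sorted blood progenitors of adult mouse bone marrow. They were chosen by name from the measured values themselves: all 4 stand among the 10 genes with the largest rise in wild-type lymphoid-primed multipotent progenitors (LMPP) over the FLT3-negative cells of the same lineage-negative, SCA1+ KIT+ (LSK) compartment. Each gene has 1 probe set annotated to it alone, so no other is shown. Whether a probe set with more symbols, or with none, also measures one of them was not examined. The 3 groups were E2A-KO LMPP, WT LMPP and WT LSK FLT3-, with 2 Affymetrix arrays each. Both LMPP groups were sorted as lineage-negative SCA1+ KIT+ FLT3-high cells, and the third group as lineage-negative SCA1+ KIT+ FLT3-negative cells, without treatment given in the labels. The labels give C57bl/6 for the WT mice and name the other genotype only as E2A-KO. The labels leave out the allele, the age in weeks and the origin of replicate arrays (separate mice, sorts or pools), so p-values measure the spread between arrays, which may be technical. The stated aim of the experiment was the comparison of WT and E2A-KO LMPP.

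LMPP are an early progenitor stage that keeps lymphoid and granulocyte-macrophage potential and has lost most megakaryocyte and erythroid potential. E2A, encoded by Tcf3, is a basic helix-loop-helix transcription factor that binds E-boxes, short DNA motifs of the form CANNTG, and is needed for normal lymphoid development. Plbd1 encodes a phospholipase B domain protein of the lysosomal and granule type. Wfdc17 encodes a small secreted protein with a whey acidic protein (WAP) four-disulfide core, also known in the mouse as AMWAP of activated macrophages and microglia. Mpeg1 encodes perforin-2, a pore-forming protein of phagocyte vesicles that acts against engulfed bacteria. Slc35d3 encodes an orphan member of the nucleotide sugar transporter family, which in the mouse is needed for the dense granules of platelets. The genes are grouped here for their rise in LMPP, and no single pathway holds all 4.

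The start regions of the 4 genes are printed because the knockout removes a factor that binds E-boxes, and they show which E-boxes lie close to each start. All 4 genes matched a RefSeq table of the GRCm38.p6 build by symbol. Each window runs from 250 bases before the annotated start to 50 after it, 5′ to 3′ on the strand of the gene, with every CANNTG in capitals. The Plbd1 window is chr6:136661844-136662143 on the minus strand. The Wfdc17 window is chr11:83703806-83704105 on the plus strand. The Mpeg1 window is chr19:12460520-12460819 on the plus strand, and the Slc35d3 window is chr10:19851410-19851709 on the minus strand.
Plbd1: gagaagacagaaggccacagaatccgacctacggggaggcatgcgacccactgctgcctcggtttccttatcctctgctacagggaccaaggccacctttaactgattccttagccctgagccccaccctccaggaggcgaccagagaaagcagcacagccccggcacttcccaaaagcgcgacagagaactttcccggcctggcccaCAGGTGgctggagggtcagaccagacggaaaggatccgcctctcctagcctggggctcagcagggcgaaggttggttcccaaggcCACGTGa
Wfdc17: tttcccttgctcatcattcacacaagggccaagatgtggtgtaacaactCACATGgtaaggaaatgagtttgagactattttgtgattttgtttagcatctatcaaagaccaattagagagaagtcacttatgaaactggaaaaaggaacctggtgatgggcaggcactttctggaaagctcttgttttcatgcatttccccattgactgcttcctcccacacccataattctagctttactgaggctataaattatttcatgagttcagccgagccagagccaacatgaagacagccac
Mpeg1: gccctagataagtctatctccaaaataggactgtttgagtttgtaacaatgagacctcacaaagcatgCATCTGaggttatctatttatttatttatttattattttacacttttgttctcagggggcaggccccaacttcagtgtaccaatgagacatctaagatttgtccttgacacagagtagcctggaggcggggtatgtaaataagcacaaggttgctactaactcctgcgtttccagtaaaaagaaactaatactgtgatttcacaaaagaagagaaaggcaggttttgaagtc
Slc35d3: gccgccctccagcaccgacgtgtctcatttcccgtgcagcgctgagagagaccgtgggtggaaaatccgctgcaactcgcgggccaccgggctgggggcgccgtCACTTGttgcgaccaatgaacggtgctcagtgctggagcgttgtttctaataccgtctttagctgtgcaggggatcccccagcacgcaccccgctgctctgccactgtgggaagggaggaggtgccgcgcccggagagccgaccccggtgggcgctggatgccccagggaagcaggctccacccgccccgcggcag

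All 4 windows hold an E-box, as do 72.3% of the 32851 RefSeq windows of the same length. Plbd1 has 2, CAGGTG at -42 and CACGTG at 44, counted from the start. Wfdc17 has CACATG at -201, Mpeg1 has CATCTG at -182 and Slc35d3 has CACTTG at -146. The form CAGGTG, a case of CANNTG that E2A is known to prefer, is in 20.2% of all windows and here in that of Plbd1. CAGCTG, the other preferred form, is in 16.3% of all windows and in none of these 4. The core GAGGAA of PU.1, a macrophage and lymphoid transcription factor, is in 28.3% of all windows and here in that of Wfdc17, on the minus strand at -39. The interferon response element, also searched, is in 3.44% of all windows and in none of these 4. Both strands were searched. The base composition differs among the 4 windows: G and C make up 67.7% in Slc35d3, 61.3% in Plbd1, 42% in Wfdc17 and 39% in Mpeg1, against a median of 52.7% over all windows. A match is a description of letters and not a bound site.

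The arrays of each group resembled each other. Pearson's r over all 45101 probe sets was 0.990 in E2A-KO LMPP, 0.989 in WT LMPP and 0.996 in WT LSK FLT3- (probe sets are not independent replicates). The LMPP arrays had median log2 intensities of 4.01 to 4.04, and the WT LSK FLT3- arrays 3.90 to 3.91. The upper quartiles were 5.78 to 5.82 in LMPP and 6.13 to 6.15 in WT LSK FLT3-. The excess of the 3′ over the 5′ Actb control probes was 3.77 to 3.95 in LMPP and 3.45 to 3.55 in WT LSK FLT3-. These differences run with the sort, and their part in any comparison of LMPP with LSK cells was not tested. Tcf3, the targeted gene, read 6.80 and 6.53 in E2A-KO LMPP, 6.93 and 6.86 in WT LMPP, and 7.27 and 7.41 in WT LSK FLT3- on its brightest probe set (log2 intensity). Its adjusted p in E2A-KO against WT LMPP was 0.5 (limma, Benjamini-Hochberg over all genes). Where its probes lie relative to the deleted part is not given, so they do not check the genotype labels. Flt3, the surface receptor of the sorting gate, averaged 10.73 in E2A-KO LMPP, 10.80 in WT LMPP and 8.81 in WT LSK FLT3-.

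All 4 genes were high in both LMPP groups and lower, though above the array median, in WT LSK FLT3- cells. There Mpeg1 lay above the upper quartile of the arrays as well (6.13 and 6.15). Plbd1 had log2 intensities of 8.13 and 7.91 in E2A-KO LMPP, 8.69 and 8.38 in WT LMPP, and 5.13 and 5.15 in WT LSK FLT3-. Every LMPP array lay above every LSK array, and the E2A-KO arrays lay below the WT LMPP arrays. Wfdc17 had 10.57 and 10.24 in E2A-KO LMPP, 9.36 and 9.40 in WT LMPP, and 6.14 and 6.00 in WT LSK FLT3-. It is the one gene of the 4 whose E2A-KO arrays lay above the WT LMPP arrays. Mpeg1 had 8.58 and 8.63 in E2A-KO LMPP, 9.76 and 9.61 in WT LMPP, and 6.50 and 6.62 in WT LSK FLT3-. The E2A-KO arrays formed a middle step, apart from both WT groups. Slc35d3 had 8.15 and 8.10 in E2A-KO LMPP, 8.50 and 8.68 in WT LMPP, and 6.00 and 5.89 in WT LSK FLT3-. Its order was that of Mpeg1, with E2A-KO and WT LMPP closer together.

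**Figure D1:**
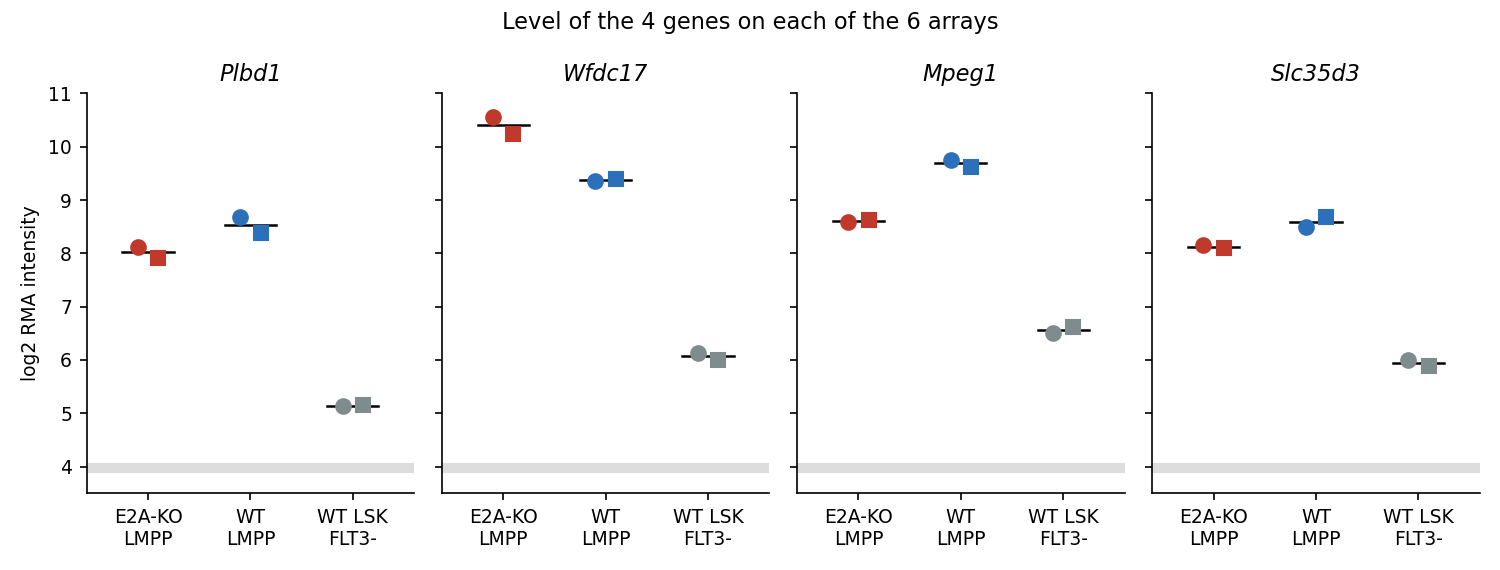
Log2 intensity of the 4 genes on each of the 6 arrays, by group (circle, replicate 1; square, replicate 2; bar, group mean; grey band, range of the array medians). Wfdc17 is highest in E2A-KO LMPP, at 10.57 and 10.24, while the other genes are highest in WT LMPP.

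The order of the group means followed from these values. Plbd1 averaged 8.02 ± 0.16 in E2A-KO LMPP, 8.54 ± 0.22 in WT LMPP and 5.14 ± 0.01 in WT LSK FLT3- (SD, n = 2 each, as below). Mpeg1 averaged 8.61 ± 0.04 in E2A-KO LMPP, 9.69 ± 0.10 in WT LMPP and 6.56 ± 0.09 in WT LSK FLT3-. Slc35d3 averaged 8.12 ± 0.04 in E2A-KO LMPP, 8.59 ± 0.13 in WT LMPP and 5.94 ± 0.08 in WT LSK FLT3-. For these 3 genes WT LMPP stood highest and WT LSK FLT3- lowest. Wfdc17 averaged 10.40 ± 0.23 in E2A-KO LMPP, 9.38 ± 0.02 in WT LMPP and 6.07 ± 0.10 in WT LSK FLT3-, so E2A-KO LMPP stood highest.

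The rise between the WT stages is what chose the 4 genes, and it is given as a description without a test. Plbd1 was 3.39 higher in WT LMPP than in WT LSK FLT3- on the log2 scale, a 10.5-fold difference and the largest rise of all genes. Wfdc17 was 3.31 higher (9.92-fold) and Mpeg1 3.13 higher (8.74-fold), ranks 2 and 3. Slc35d3, at rank 10, was 2.64 higher (6.25-fold), and the ganglioside synthase gene St8sia1, just outside at rank 11, was 2.64 higher as well. The other genes of the first 10 were Il7r, Ccr9 and, of the MHC class II pathway, H2-Aa, H2-Ab1, H2-Eb1 and Cd74. Of all genes tested, 34.1% were called at this step at an adjusted p under 0.05, 10.4% higher and 23.7% lower in WT LMPP. The WT LMPP arrays all lay above the LSK arrays for 32.4% of genes and all below them for 39.3%. Since these are bulk samples, a smaller share of expressing cells and less RNA per cell cannot be told apart.

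In E2A-KO against WT LMPP, the 4 genes moved in different directions: Mpeg1 fell, Wfdc17 rose, and neither Plbd1 nor Slc35d3 passed the test. The rule did not use the E2A-KO arrays but did use the WT LMPP arrays, where these genes were picked for being high. That choice favoured lower values in E2A-KO than in WT LMPP in advance. Mpeg1 fell by 1.08 on the log2 scale (SE 0.13, 95% interval -1.38 to -0.78, a 2.11-fold difference), with an adjusted p of 0.0055 from limma's moderated test over all genes. Both E2A-KO arrays lay below both WT arrays. The call held in all 15 alternative analyses, with adjusted p between 3.45e-05 and 0.0495.

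Wfdc17 rose by 1.02 (SE 0.15, 95% interval 0.69 to 1.36), a 2.03-fold difference with an adjusted p of 0.0139 (limma). Both E2A-KO arrays lay above both WT arrays. The rise kept its direction in all 15 alternatives, between 0.86 and 1.18, but its call was lost in 6 of them. Leaving out either LSK array gives the fit of the 4 LMPP arrays alone, since 1 array has no spread in its group. These alternatives are thus 1 analysis listed repeatedly, and in it the adjusted p was 0.0618. It was 0.0839 without E2A-KO replicate 1, 0.0604 without WT LMPP replicate 1 and 0.0526 without WT LMPP replicate 2.

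Plbd1 was 0.52 lower in E2A-KO LMPP (SE 0.15, 95% interval -0.86 to -0.17, adjusted p = 0.161, limma). Slc35d3 was 0.47 lower (SE 0.13, 95% interval -0.77 to -0.16, adjusted p = 0.152, limma). In both genes the 2 E2A-KO arrays lay below the 2 WT arrays, but the difference did not pass after adjustment in any of the 15 alternatives. Thus 2 of the 4 genes were called, against 1.37% of all genes tested (0.379% higher, 0.995% lower). In a separate fit of the 10916 genes left without the dimmest 40%, 0.797% were called higher and 2.27% lower. The count is no test of the 4 genes as a set, since their choice for high WT LMPP values favoured falls. The arrays did not overlap for any of the 4 genes, 3 lower and 1 higher. Over all genes the arrays did not overlap for 22.8% in the lower and 18.8% in the higher direction.

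**Figure D2:**
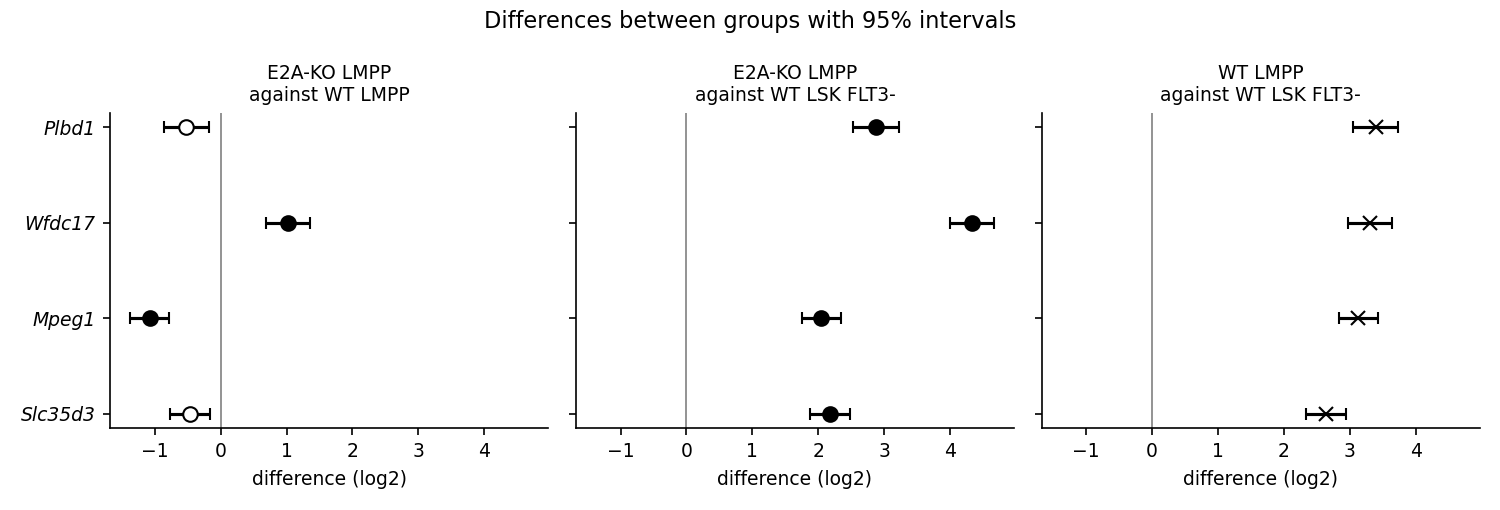
Log2 differences of the 4 genes with 95% intervals in the 3 comparisons (filled, adjusted p under 0.05; open, not; crosses, the WT stage comparison that chose the genes and is not tested). In E2A-KO against WT LMPP, Wfdc17 lies at 1.02 and Mpeg1 at -1.08, and the 95% intervals of Plbd1 and Slc35d3 end below 0 although neither passed after adjustment.

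Against WT LSK FLT3-, the E2A-KO LMPP arrays were far higher for all 4 genes. This comparison shares the LSK arrays with the rule that chose the genes, and its values are no independent support. Wfdc17 was 4.33 higher in E2A-KO LMPP (SE 0.15, 20.2-fold), which is rank 2 of all rises. Plbd1 was 2.87 higher (7.34-fold, rank 3), Slc35d3 2.18 higher (4.53-fold, rank 13) and Mpeg1 2.05 higher (4.14-fold, rank 15). The adjusted p-values (limma) lay between 1.4e-06 and 2.76e-05, but the choice of genes by these LSK arrays favoured such calls in advance. All 4 genes were called higher, which is thus no test of them. Over all genes 11% were called higher, 26.5% lower and 37.5% in either direction. The arrays did not overlap for any of the 4, as for 32.9% of all genes in the higher and 41.1% in the lower direction.

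Close relatives of the 4 genes did not share one pattern. Wfdc18 lies next to Wfdc17 on chromosome 11 and encodes another WAP-domain protein. It read 7.83 and 7.73 in E2A-KO LMPP, 7.78 and 7.82 in WT LMPP, and 5.24 and 5.23 in WT LSK FLT3-. Its 2 LMPP groups overlapped, with a difference of -0.02 between E2A-KO and WT LMPP (adjusted p = 0.964, limma). At the stage step Wfdc18 rose by 2.56, rank 13 of all genes. Whether the changes of Wfdc17 and Wfdc18 in the knockout differ was not tested. Wfdc21, also in this cluster, was 0.76 lower in E2A-KO LMPP without passing (adjusted p = 0.166) and differed by -0.03 between the WT stages. Slpi, the leukocyte protease inhibitor of the same domain family, differed by 0.03 in the knockout and by 0.13 between the WT stages, and passed in neither.

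Plbd2, the paralog of Plbd1, was 0.25 lower in E2A-KO than in WT LMPP (adjusted p = 0.619) and differed by -0.30 between the WT stages. Prf1, the perforin of cytotoxic lymphocytes and a distant relative of Mpeg1, lay below the array median on all 6 arrays. Pfpl, a pore-forming protein-like gene next to Mpeg1 on chromosome 19, read 5.18 and 4.95 in E2A-KO LMPP against 4.24 and 4.38 in WT LMPP. It rose by 0.76 in the knockout (adjusted p = 0.037, limma), where Mpeg1 fell. That call was lost in 10 of 15 alternatives, and with the mean of its probe sets the difference was 0.05 (adjusted p = 0.916). Slc35d1 and Slc35d2, transporters of nucleotide sugars closest in name to Slc35d3, differed by -0.04 and 0.27 in the knockout without passing. Both fell between the WT stages, by 0.95 and 0.94, where Slc35d3 was higher, though the call of Slc35d1 was lost in 1 alternative (adjusted p = 0.0626).

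Of the other genes that flank the 4 in the RefSeq gene order, looked up by position after the lists were chosen, none passed in E2A-KO against WT LMPP. Next to Wfdc17 on chromosome 11, the chemokine gene Ccl4 differed by 0.19 between WT LMPP and WT LSK FLT3- without passing. Ccl3, which lies beyond it, rose by 1.01 (adjusted p = 0.00738, limma). Dtx4, a Deltex ubiquitin ligase gene beside Mpeg1, rose by 0.97 (adjusted p = 0.00891). Pex7, a peroxisomal import receptor gene beside Slc35d3, fell by 0.88 (adjusted p = 0.00196). Around Plbd1, Atf7ip, Gucy2c, H2aj and E330021D16Rik did not pass at this step.

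Genes with roles like those of the 4 were examined by lists. For macrophages and monocytes 31 genes were measured. In E2A-KO against WT LMPP the list held 3 falls and 0 rises, where 0.995% of all genes were called lower and 0.379% higher. The median difference of the list was -0.07 against -0.02 over all genes. Cybb, the catalytic subunit of the phagocyte oxidase, read 3.78 and 4.48 in E2A-KO LMPP and 5.74 and 5.79 in WT LMPP. It fell by 1.64 (adjusted p = 0.00709, limma), to near the array median. Csf1r, the receptor of the macrophage growth factor, read 7.48 and 7.70 in E2A-KO LMPP and 8.81 and 8.63 in WT LMPP. It fell by 1.13 (adjusted p = 0.00811, or 0.0668 without E2A-KO replicate 1). Ly86, a partner of a Toll-like receptor homolog, fell by 0.70 (adjusted p = 0.0439), a call lost in 10 of 15 alternatives. Mpeg1 thus fell beside 3 of 31 list genes, and Wfdc17 rose where none of them was called higher. Apart from the test, the E2A-KO arrays lay wholly above the WT LMPP arrays for 8 list genes and wholly below for 11. Over all genes these shares were 18.8% and 22.8%.

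Between the WT stages, 10.4% of all genes were called higher and 23.7% lower. Of the 31 list genes 7 rose and 4 fell, with a median of 0.03 against -0.01 over all genes. Those with the largest calls were C1qb, a complement subunit, at -1.90, the adhesion molecule gene Vcam1 at -1.77, the protease gene Ctss at 1.40 and the mannose receptor gene Mrc1 at -1.20. Of the list, 16 genes lay above the array median on all 6 arrays, among them Csf1r, Cd68, Lyz2 and C1qa, and 5 lay below it on all 6 (Itgam, Cd14, Marco, Cx3cr1 and Mertk). The summed linear intensity of the list was 2495 to 2762 in E2A-KO LMPP, 3382 to 3416 in WT LMPP and 2210 to 2304 in WT LSK FLT3-. At this step the list moved in both directions, so the 4 genes are called by their symbols and not as a macrophage group.

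In E2A-KO against WT LMPP, the fall of Mpeg1 ran beside that of markers of mature neutrophils. Over all genes 0.995% were called lower and 0.379% higher in E2A-KO against WT LMPP. Of 10 measured neutrophil markers, 7 fell and 0 rose in this comparison, with a median of -1.54. Their summed linear intensity was 590.1 to 672 in E2A-KO LMPP, 2987 to 2988 in WT LMPP and 1643 to 1760 in WT LSK FLT3-, and Cd177 lay below the array median on all arrays. Between the WT stages 6 of these markers rose and 0 fell, against 10.4% of all genes called higher and 23.7% called lower. In E2A-KO LMPP against WT LSK FLT3-, 6 of these markers fell and 0 rose, where 26.5% of all genes were called lower and 11% higher. Mpeg1 parted from the markers there and was 2.05 higher, a value that shares the LSK arrays of the rule. Of 11 dendritic cell markers, 0 passed in the knockout and 7 rose between the WT stages. Their sums were 808 to 941 in E2A-KO LMPP, 1093 to 1194 in WT LMPP and 312 to 332 in WT LSK FLT3-. Cd74 and H2-Ab1 of the MHC class II pathway weigh most in the WT LMPP sum. They averaged 8.46 and 8.94 there and rose by 2.99 and 2.70, ranks 5 and 8 of all genes. The next brightest marker in WT LMPP, Cox6a2, averaged 6.68. Of the 11 markers 7 lay above the array median on all 6 arrays, among them Siglech, Zbtb46 and Itgax, and 3 lay below it on all 6 (Xcr1, Batf3 and Cd209a). The part of neutrophil or dendritic cells in the values of the 4 genes was not tested.

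In the knockout, 1 of 9 B and plasma cell markers fell, 1 of 9 T and NK cell markers rose and 0 of 8 erythroid and platelet markers passed. Of all genes 1.37% were called there in either direction. Between the WT stages 3 B and plasma cell markers rose and 2 fell, and 3 T and NK cell markers rose and 1 fell. Of the erythroid and platelet markers 2 rose and 6 fell. Over all genes 10.4% were called higher and 23.7% lower. Igha fell by 5.79, the largest fall of all genes, and Jchain by 4.77, while the largest B and plasma cell rise was 0.81. The sum of that list was 191.5 to 202.5 in E2A-KO LMPP, 226.9 to 230.7 in WT LMPP and 1400 to 1557 in WT LSK FLT3-. The part of plasma cells in the LSK values was not tested.

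With the knockout, few genes passed on the lists named for each gene's role, as over all genes, where 1.37% were called. Of 10 phagocyte killing genes, listed for the role of Mpeg1, 1 fell (Cybb, above) and 0 rose. Their median was -0.36, 9 of the 10 had a lower mean in E2A-KO LMPP, and for 8 of these the arrays did not overlap (22.8% of all genes in that direction). Of 10 other perforin-domain genes, 26 lysosomal hydrolase genes for Plbd1, 9 WAP-domain genes for Wfdc17 and 24 dense granule genes for Slc35d3, 0 passed at an adjusted p under 0.05. Their medians were -0.08, -0.05, -0.00 and -0.11 in that order. Of 21 other SLC35 transporter genes, Slc35f2 rose by 0.79 (adjusted p = 0.0495), a call lost in 13 of 15 alternatives. Over the 7 lists 4 genes were called in the knockout, 1 without E2A-KO replicate 1, 4 without WT LMPP replicate 1 and 2 when any of the other arrays was left out.

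**Figure D3:**
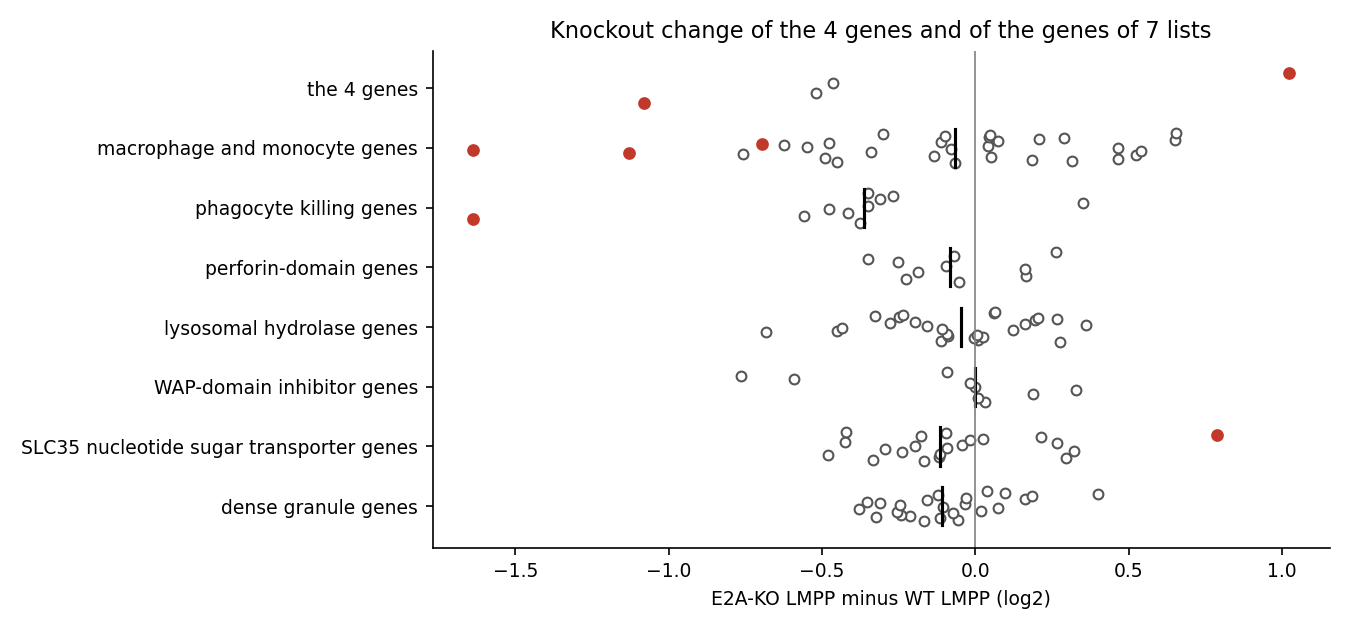
Log2 differences in E2A-KO against WT LMPP for each gene of the 7 role lists and for the 4 genes (filled, adjusted p under 0.05; open, not; black bars, list medians). Most list genes gather near 0, with Cybb at -1.64 the lowest.

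At the WT stage step, many genes of the role lists of Plbd1 and Slc35d3 fell. Of all genes 23.7% were called lower here, and of the 10916 genes left without the dimmest 40%, 40.8% were, with a median of -0.29. The share of the brighter genes comes from a separate fit without the dim ones. Whether the lists below differ from it was not tested, so the counts only describe the lists. Of the lysosomal hydrolase genes 12 of 26 fell and 2 rose, with a median of -0.40. The cathepsin gene Ctsl fell by 1.80, the sphingomyelinase gene Smpd1 by 1.04 and the galactosidase gene Glb1 by 0.99. Of the SLC35 genes 11 of 21 fell and 1 rose, with a median of -0.52, led by Slc35a5 at -1.19 (-0.13 and no longer called with the mean of its probe sets). Of the dense granule genes 9 of 24 fell and 0 rose, with a median of -0.36. Slc18a2, the transporter that loads monoamines into granules, fell by 5.01, and Rab38, a granule-sorting GTPase, by 1.40.

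Both the number and the size of these falls depended on how arrays were scaled. After quantile normalization 6 lysosomal genes fell and 4 rose, 4 SLC35 genes fell and 1 rose, and 5 dense granule genes fell and 1 rose. The medians of the 3 lists, in that order, were then -0.12, -0.12 and -0.04. Of all genes on the 7 role lists, 54 were called at this step, 35 after quantile normalization, 30 without WT LSK FLT3- replicate 1 and 26 without WT LSK FLT3- replicate 2. Of the WAP-domain genes Wfdc18 rose by 2.56 and Wfdc15a by 0.64, the second a call lost in 4 of 14 alternatives. Of the phagocyte killing genes 1 rose, the oxidase subunit Ncf1 by 1.75, and 2 fell. Of the perforin-domain genes the complement gene C8b (0.56), Brinp2 (0.43) and C9 (0.42) passed. However, Brinp2 and C9 lay below the array median on all 6 arrays and C8b on 5. After quantile normalization, centring on array medians or addition of 16 before the log, 0 perforin-domain genes passed.

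The genes whose profiles over the 6 arrays lay closest to each of the 4 were found by the root mean squared difference of centred log2 values. The WT arrays among them are the ones that chose the 4 genes, so the measure follows the stage rise and carries no p. Plbd1 lay closest to Cd74 (0.18), H2-Eb1 (0.28), H2-Ab1 (0.31), H2-Aa (0.36) and Mpeg1 (0.36). Slc35d3 lay closest to H2-Ab1 (0.14), H2-Eb1 (0.18), Wfdc18 (0.20), Cd74 (0.21) and H2-Aa (0.23). MHC class II genes thus fill most of the first 5 places of both. Mpeg1 lay closest to Slc35d3 (0.29), H2-Aa (0.29), H2-Ab1 (0.30), Cd74 (0.32) and Emp1 (0.33). Emp1, a membrane protein gene, fell by 0.88 in E2A-KO against WT LMPP (adjusted p = 0.0228, limma), as Mpeg1 did, but that call was lost in 7 of 15 alternatives. Wfdc17 had no near match: its closest genes were Plbd1 (0.72), Wfdc18 (0.74), Cd74 (0.74), H2-Eb1 (0.77) and H2-Ab1 (0.87). Among the 4 genes themselves, Mpeg1 and Slc35d3 differed least (0.29) and Wfdc17 and Mpeg1 most (1.05).

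**Figure D4:**
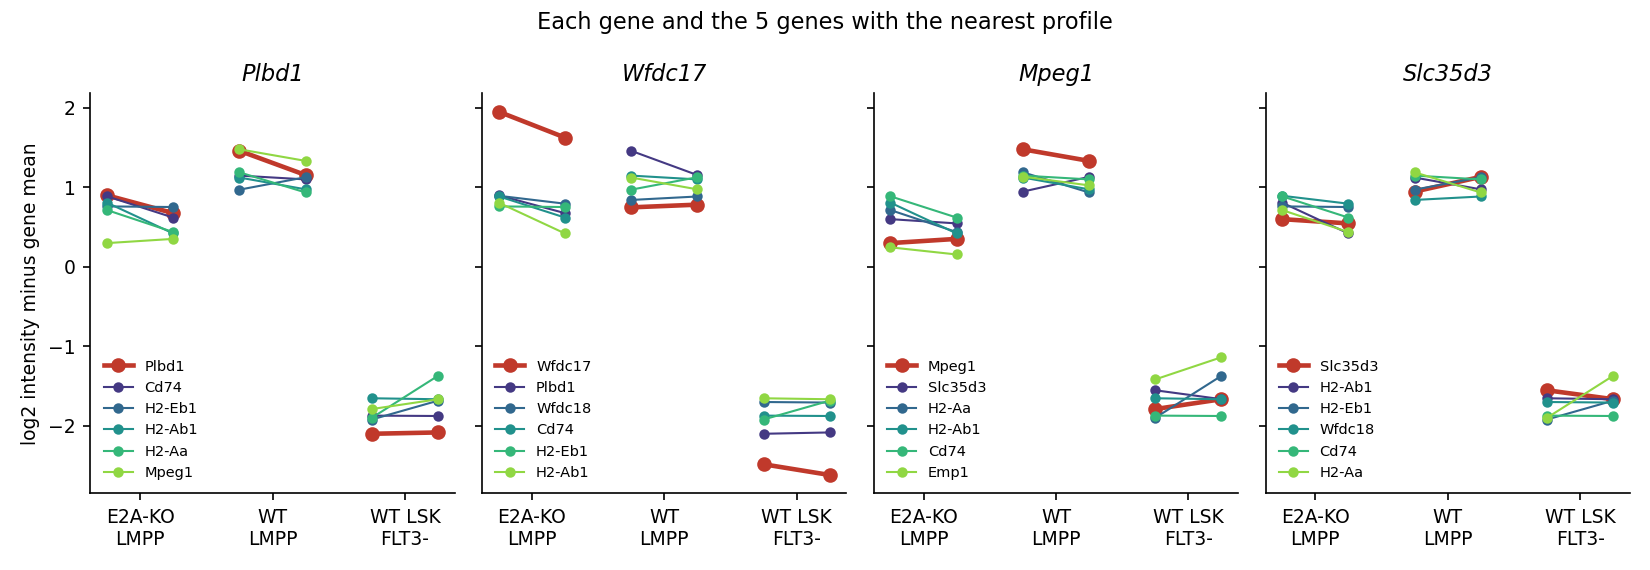
Centred log2 intensity over the 6 arrays for each of the 4 genes and its 5 nearest genes. The lines run close together for Plbd1, Mpeg1 and Slc35d3, and Wfdc17 stands above its neighbours on the E2A-KO arrays.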

How the data were processed

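Labelled cRNA from cells sorted into lysis buffer was made with a small-sample amplification protocol and hybridised to Affymetrix 3′ arrays, per the labels' protocols. The deposited values are linear intensity values per probe set, made by the authors with RMA (version unstated), per the submitters' processing notes. A joint or separate normalization of the groups is not stated there. Groups follow the titles, since a free-text label calls every sample WT LMPP.

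Log2 was taken of all values. Of 45101 probe sets, 34958 had 1 symbol, 932 several and 9211 none, and 34754 matched a GRCm38.p6 gene table by Entrez ID. Each of 18194 genes was represented by its probe set with the highest mean. limma 3.58.1 in R 4.3.3 fitted 1 mean per group on 6 arrays (3 residual degrees of freedom). Two-sided p-values were adjusted over all genes (Benjamini-Hochberg, threshold 0.05). SD is between arrays and SE from the model. The number of arrays limits the precision. The limma fit of E2A-KO against WT LMPP was tested on simulated data, and the other steps were not.

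The 4 genes and the lists were chosen with earlier results of these data known. Named list genes are those called, up to 4 with the largest change, plus fixed paralogs, and the 5 nearest profiles of each gene. Genes with no probe set of 1 symbol were not analysed here. Alternatives covered scaling, probe set choice, filters, a pseudocount, variance settings, a replicate block and left-out arrays. In each comparison, leaving out 1 array of the third group gives the same fit as the 4 arrays of the comparison alone. Every tally of alternatives therefore counts that analysis more than once.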

Additional observations from a re-analysis of the deposited data

How the results depend on the processing

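In E2A-KO against WT LMPP, 250 genes were called over all 6 arrays. The count was 89 with the 4 LMPP arrays alone, 548 with a trended and robust variance, 123 with a 2-fold minimum, and 89 to 164 when each array was left out in turn. Of the 4 genes 2 were called, against 1 with the 4 LMPP arrays alone and 1 to 2 when each array was left out. In E2A-KO LMPP against WT LSK FLT3-, 6822 calls became 3617 after quantile normalization, 1358 with the 2-fold minimum and 2944 to 7515 with 1 array left out, and all 4 genes stayed called. In WT LMPP against WT LSK FLT3-, 6198 calls became 3496 and 1214 under the same settings, and 2370 to 6410 with 1 array left out. The causes were not tested. The choice of the 4 genes by the LSK arrays favoured their calls against WT LSK FLT3- in advance. That these calls stayed is thus no test of the 4 genes. With the 45101 probe sets as the unit, the 3 comparisons called 445, 12853 and 10648 probe sets, which are not counts of genes. Of the probe sets that stand for the 18194 genes, 209, 6104 and 5324 were among them. The share of calls that were higher was 29.3% in E2A-KO LMPP against WT LSK FLT3-, 44% after quantile normalization and 14.6% after centring on array medians. In WT LMPP against WT LSK FLT3- it was 30.5%, 47.4% and 17.8% under the same settings, and centring moved the all-gene median to -0.16 and -0.12 in these comparisons. No difference of the 4 genes changed sign in the alternatives run. Their signs against WT LSK FLT3- were likewise favoured in advance by the choice of genes. With the replicate number as a block, 200, 6535 and 5914 genes were called in the 3 comparisons and the calls of the 4 genes were as before (adjusted p in E2A-KO against WT LMPP 0.0193 for Wfdc17 and 0.0128 for Mpeg1). Deviations of same-numbered arrays from their group means correlated at 0.02, -0.04 and -0.02 over genes. The labels do not give whether same-numbered arrays share a sort or batch, and so few arrays cannot show it.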
